A study of Mus musculus with 4 samples.

Results

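The genes described here were 10 genes of fat cells, *Pparg*, *Cebpa*, *Cebpb*, *Adipoq*, *Plin1*, *Cidec*, *Ucp1*, *Prdm16*, *Ebf2* and *Lpl*, and the regions were the accessible peaks at their loci in the mouse aorta. A peak was counted at a locus when it overlapped the gene body or the 20 kb on either side in the GENCODE vM21 annotation of GRCm38. By this rule 92 of the 64360 peaks in the 4 deposited lists were chosen, at 10 of 21938 protein-coding genes. The rule uses position and not the values of the peaks, and the genes were chosen with earlier results of these data known.

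ATAC-seq, in which the transposase Tn5 cuts accessible DNA, was performed on nuclei from the aorta at P60, in untreated mice of the C57BL/6J background that were either control, with the genotype *Col3a1*+/+, or VEDS, with *Col3a1*G938D/+. VEDS is vascular Ehlers-Danlos syndrome, and *Col3a1*G938D/+ mice carry 1 mutant allele of the type III collagen gene. There were 4 libraries, a female and a male one of either genotype, each of tissue pooled from 2 mice and analyzed as a whole, with no cell types separated. The 2 libraries of a genotype also differed in sex, and since 2 libraries against 2 allow no exact permutation p-value below 0.333, genotypes were not tested. The aorta lies in a sleeve of perivascular fat. Its removal is described for the RNA-seq tissue of the study and is not stated for these nuclei.

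PPARγ (*Pparg*) and C/EBPα (*Cebpa*) are the transcription factors that drive and maintain the fat cell state, and C/EBPβ (*Cebpb*) acts before them. EBF2 (*Ebf2*) and PRDM16 (*Prdm16*) are regulators of brown and beige fat, and the fat around the thoracic aorta resembles brown fat in rodents. Their targets include adiponectin (*Adipoq*), lipoprotein lipase (*Lpl*), the lipid droplet proteins perilipin 1 (*Plin1*) and CIDEC (*Cidec*), and the uncoupling protein UCP1 (*Ucp1*), which releases the energy of respiration as heat in brown fat. Several of the regulators are also used outside fat, whereas *Adipoq*, *Plin1* and *Ucp1* are largely restricted to it. The study lists *Prdm16* among the transcripts of contractile, differentiated vascular smooth muscle cells.

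The bases before the starts of 6 of the genes are shown first, because they differ in CpG content and the starts that carried a peak were all among the CpG-rich ones. Each line gives 150 bases before the annotated start in the direction of transcription, from GRCm38, with every CpG in capitals. A peak over the start of *Cebpa* was called in both long lists, that is control female and VEDS male, over those of *Cebpb* and *Pparg* in the VEDS male library alone, and over the last 3 in none. Of the starts not printed, *Ucp1* had 8 CpG in the same stretch and *Cidec* 2, both without a peak. *Prdm16* had 15 CpG and a peak in the VEDS male list alone.
*Cebpa*, 12 CpG, chr7:35119143-35119292, plus strand: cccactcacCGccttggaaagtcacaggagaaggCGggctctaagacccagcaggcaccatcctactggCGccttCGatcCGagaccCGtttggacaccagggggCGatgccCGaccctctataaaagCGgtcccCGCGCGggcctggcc
*Cebpb*, 26 CpG, chr2:167688765-167688914, plus strand: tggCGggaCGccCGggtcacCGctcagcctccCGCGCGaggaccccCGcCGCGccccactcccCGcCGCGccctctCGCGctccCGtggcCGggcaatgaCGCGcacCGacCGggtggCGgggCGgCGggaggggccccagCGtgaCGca
*Pparg*, first start, 20 CpG, chr6:115360801-115360950, plus strand: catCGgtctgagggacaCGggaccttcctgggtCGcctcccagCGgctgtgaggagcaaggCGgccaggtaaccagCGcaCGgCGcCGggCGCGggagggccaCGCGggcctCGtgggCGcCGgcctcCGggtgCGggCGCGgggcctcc
*Adipoq*, 0 CpG, chr16:23146386-23146535, plus strand: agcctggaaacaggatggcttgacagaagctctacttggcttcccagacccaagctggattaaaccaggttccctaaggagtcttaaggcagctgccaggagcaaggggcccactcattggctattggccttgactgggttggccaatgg
*Plin1*, 0 CpG, chr7:79732904-79733053, minus strand: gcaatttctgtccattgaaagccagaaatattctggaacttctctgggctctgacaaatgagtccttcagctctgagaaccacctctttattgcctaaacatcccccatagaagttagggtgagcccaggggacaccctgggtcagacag
*Lpl*, 5 CpG, chr8:68880341-68880490, plus strand: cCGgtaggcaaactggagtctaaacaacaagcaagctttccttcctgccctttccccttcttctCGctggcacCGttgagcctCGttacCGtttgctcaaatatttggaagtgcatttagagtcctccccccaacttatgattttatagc

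The second set is from peaks away from starts. A match to the 7-base sequence TGANTCA, bound by the stress- and growth-responsive AP-1 factors (FOS and JUN proteins), was present in the summit window of each of the 4 *Pparg* peaks that lay over 3 kb from any TSS, and these 4 sites are given with 20 bases on each side and the match in capitals.
*Pparg*, intron, 119 kb from the gene start, chr6:115480092-115480138, plus strand: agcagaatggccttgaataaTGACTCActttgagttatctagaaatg
*Pparg*, downstream, 133 kb from the gene start, chr6:115493536-115493582, plus strand: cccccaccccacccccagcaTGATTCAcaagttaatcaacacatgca
*Pparg*, downstream, 139 kb from the gene start, chr6:115499752-115499798, plus strand: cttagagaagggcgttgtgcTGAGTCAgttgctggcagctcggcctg
*Pparg*, downstream, 140 kb from the gene start, chr6:115501200-115501246, plus strand: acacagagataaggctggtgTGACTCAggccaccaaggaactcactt
The other lines show the *Prdm16* peak that ranked highest of all locus peaks in both long lists, with its AP-1 and C/EBP matches in capitals, a steroid receptor element in another *Prdm16* intron peak that was called in both long lists, the part of the peak upstream of *Ucp1* that holds a C/EBP match, and a CTCF match upstream of *Cebpb*. C/EBP factors bind TTGCNNAA, steroid receptors bind a pair of inverted sites, and CTCF marks boundaries of chromatin loops.
*Prdm16*, intron, 258 kb from the gene start, chr4:154379033-154379243, plus strand: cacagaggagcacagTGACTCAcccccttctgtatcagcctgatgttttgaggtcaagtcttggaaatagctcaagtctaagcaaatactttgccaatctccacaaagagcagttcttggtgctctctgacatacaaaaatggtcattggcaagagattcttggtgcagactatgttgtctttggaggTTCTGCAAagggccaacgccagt
*Prdm16*, intron, 154 kb from the gene start, chr4:154482879-154482951, plus strand: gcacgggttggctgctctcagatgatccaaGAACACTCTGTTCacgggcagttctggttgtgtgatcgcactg
*Ucp1*, upstream, chr8:83278701-83278828, minus strand: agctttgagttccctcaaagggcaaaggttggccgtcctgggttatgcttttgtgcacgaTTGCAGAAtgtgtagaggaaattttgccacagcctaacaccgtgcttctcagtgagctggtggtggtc
*Cebpb*, upstream, chr2:167680098-167680169, minus strand: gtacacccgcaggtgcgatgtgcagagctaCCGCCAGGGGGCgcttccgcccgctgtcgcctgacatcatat

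The lists differed widely in length, with 21176 and 1236 peaks in the female and male control libraries and 504 and 41444 in those of VEDS. The median number of fragments at the summit was 14, 7, 6 and 22 in the same order. There were 26 locus peaks in the control female list, 66 in the VEDS male list, and none in the control male and VEDS female lists. The highest of the 92 ranked 1031 in its list by −log10 q. When every list was shortened to 504 peaks, none of the 4 held a peak at any of the 10 loci. The absence of peaks in the short lists was therefore not read as closed chromatin. The control male list also differed in kind. Masked sequence made up a median of 99.5% of a peak there, and the median width was 687 bp. These medians were 9.16% and 321 bp in the VEDS female list, 3.36% and 249 bp in control female, and 5.51% and 287 bp in VEDS male. When the VEDS male list was shortened to the 21176 peaks of highest −log10 q, it held 27 locus peaks beside the 26 of the control female list. The following results describe the 2 long lists, which differ in genotype, sex, length and fragments at the summit, and the part of each in a difference between them cannot be told apart.

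At the 10 loci, 3 genes had a promoter peak in the control female list and 6 in the VEDS male list, within 3 kb of a TSS of the gene. Over all protein-coding genes the share with a promoter peak was 47.4% in the control female list and 58.5% in the VEDS male list, beside 30% (95% Wilson interval 10.8% to 60.3%, counting error only) and 60% (31.3% to 83.2%) for the 10 genes. In the control male and VEDS female lists 0 of 10 had one (upper limit 27.8%), where 1.56% and 1.49% of all genes did. *Cebpa*, *Ebf2* and *Prdm16* were the 3 genes with promoter peaks in both long lists, and *Pparg*, *Cebpb* and *Plin1* had them in the VEDS male list alone. No promoter peak was called at *Adipoq*, *Lpl*, *Cidec* or *Ucp1* in any list. Peaks anywhere in the locus were present at 8 genes in the control female list (64.1% of all genes) and at 9 in the VEDS male list (73.5%), and at none in the short lists (4.61% of all genes in the control male list and 3.2% in the VEDS female list). The intervals of the promoter shares of the 10 genes included those of all genes in both long lists.

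**Figure D1:**
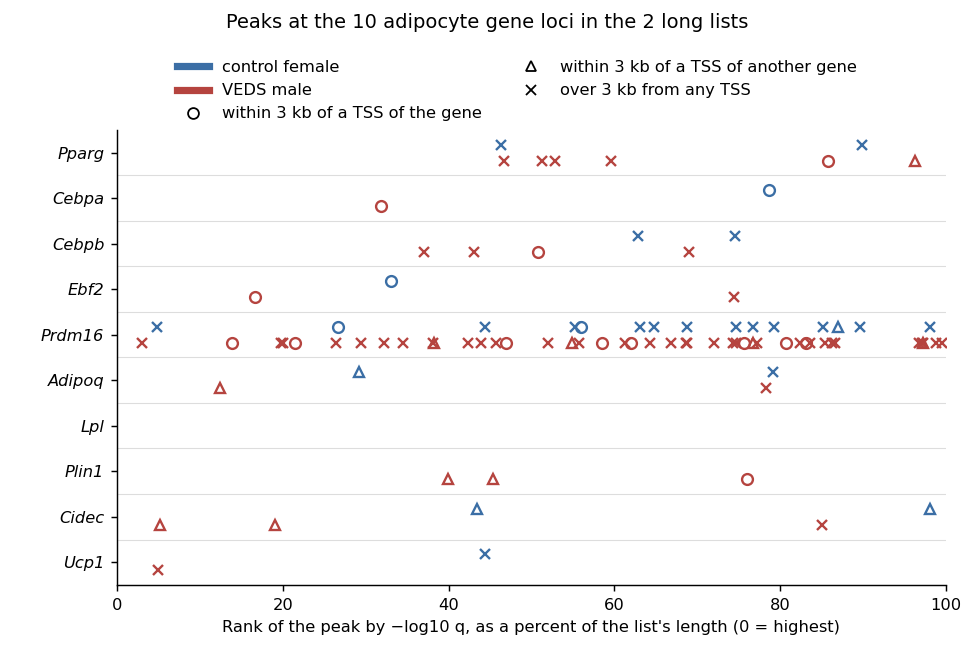
Rank of each of the 92 locus peaks within its own list (horizontal axis, percent of the list's length, 0 is the highest −log10 q), by gene, for the control female (blue) and VEDS male (red) lists. Symbols mark the position relative to a TSS, *Lpl* has no peak, and *Prdm16* holds 15 of the 26 control female and 44 of the 66 VEDS male peaks.

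A promoter within 3 kb can hold a peak that is not at the start itself. In windows from 250 bp before to 50 bp after each of the 28 annotated protein-coding starts of the 10 genes, 8 windows were CpG-rich (observed over expected CpG of at least 0.6) and 20 were CpG-poor. Of the 8 CpG-rich windows 3 were overlapped by a peak in the control female list and 7 in the VEDS male list, while among all CpG-rich starts the shares were 64.7% and 78.7%. Of the 20 CpG-poor windows none was overlapped in either list, beside 9.88% and 15.9% of all CpG-poor starts. The CpG-rich windows belonged to the 5 regulators. Their ratios were 0.914 at the first *Pparg* start, 0.853 and 0.861 at *Cebpa*, 1.03 at *Cebpb*, 0.939 and 0.952 at *Prdm16*, and 0.892 and 0.817 at the internal starts of *Ebf2*. In the control female list the windows with a peak were both of *Cebpa* and 1 of *Ebf2*, and in the VEDS male list the CpG-rich window without one was the *Ebf2* start 0.29 kb from the gene start. Every start of *Adipoq* (0 and 0.154), *Lpl* (0.47), *Plin1* (0.05 to 0.388), *Cidec* (0.219 to 0.424) and *Ucp1* (0.484) was CpG-poor. The 20 CpG-poor windows included the *Pparg* start 61.1 kb inside the gene, which serves the fat-specific form of PPARγ, with a ratio of 0.17 and no peak. A C/EBP match was present in 9 of the 28 windows, at *Plin1*, *Pparg*, *Cidec* and *Lpl*, and in 9.84% of all protein-coding start windows. Several of the starts lie within 300 bp of one another and share sequence.

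**Figure D2:**
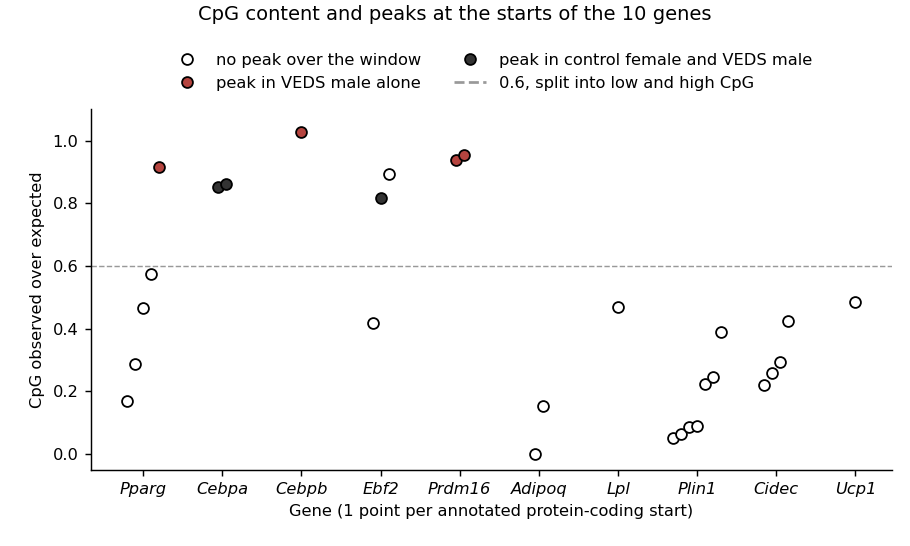
Observed over expected CpG (vertical axis, a ratio) in the 300-bp window at each of the 28 protein-coding starts, 1 point per start. Points are filled where a peak overlapped the window, and none of the 20 points below the dashed line at 0.6 is filled.

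At *Pparg* (chr6:115360951-115490399, plus strand), 2 peaks were called in the control female list and 6 in the VEDS male list. Both control female peaks were distal. The peak in the intron 119 kb from the gene start had 7 fragments (exact Poisson interval 2.81 to 14.4) and rank 19026 in the control female list, and 18 fragments (10.7 to 28.4) and rank 21880 in the VEDS male list. Downstream of the gene, the peak 140 kb from the start had 12 fragments and rank 9815 in the control female list and 20 fragments and rank 21263 in the VEDS male list. In the VEDS male list this was joined by peaks at 133 kb (15 fragments, rank 24695) and 139 kb (22 fragments, rank 19352, the highest of the locus there). The peak over the first start, which serves the widely expressed form of *Pparg*, had 10 fragments (4.8 to 18.4) and rank 35532 of 41444. It was in the VEDS male list alone, and near the end of it. The sixth VEDS male peak lay at 102 kb within 3 kb of the TSS of an antisense gene, *Gm44079*, with 8 fragments. Within 300 bp centered on the summit, AP-1 matches were found at both control female peaks and at 5 of 6 VEDS male peaks. The window at the first start was the exception. The window at 133 kb also held a C/EBP match, 60 bp from the summit.

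*Cebpa* (chr7:35119293-35121928, plus strand) had 1 peak in each long list, with summits at −86 and −87 bp from the gene start. The control female peak had 9 fragments (4.12 to 17.1) and rank 16659, in the lower part of its list. The VEDS male peak had 32 (21.9 to 45.2) and rank 13205, within the highest 31.9%. Both peaks also lay within 3 kb of a start of the antisense gene *Gm45091*. No other peak was called within 20 kb of *Cebpa* in any list, and its 300-bp windows held none of the 9 motifs searched.

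*Cebpb* (chr2:167688915-167690418, plus strand) had distal peaks on both sides in both lists. The upstream peak at −8.82 kb had 12 fragments in the control female list and 28 in the VEDS male list, at ranks 13301 and 15351, and its summits were 1 bp apart. Its window held the CTCF match printed above within 37 bp of both summits. The downstream peak had 12 fragments at 7.42 kb and rank 15783 in the control female list, and 33 at 7.31 kb and rank 17846 in the VEDS male list. A further VEDS male peak lay at 9.18 kb with 23 fragments, and its window held an AP-1 match outside the peak. Over the start itself a peak was called in the VEDS male list alone, with 33 fragments (22.7 to 46.3) and rank 21055. This peak also lay within 3 kb of a start of the protein-coding gene *Tmem189*. Its enrichment over the local background was 4.67-fold, below the median of 6.56-fold of that list, against an estimated background of 6.28 fragments.

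At *Ebf2* (chr14:67233292-67430918, plus strand), an internal start 1.35 kb from the gene start carried a peak in both lists, with 16 fragments and rank 6991 in the control female list and 40 fragments and rank 6878 in the VEDS male list. These were in the highest 33.0% and 16.6% of their lists and were the highest-ranked promoter peaks of the 10 genes that were not at *Prdm16*. They also lay within 3 kb of a start of the noncoding gene *Gm20675*. The first *Ebf2* start had no peak. A further VEDS male peak lay in an intron at 147 kb with 12 fragments, and its window held a C/EBP match outside the peak. The locus of 237.6 kb held 1 peak in the control female list and 2 in the VEDS male list, where 757 genes with loci of similar length (the shorter at least 0.8 times the longer) had medians of 2 and 4, and 26.4% and 28.7% of them had fewer peaks than *Ebf2*.

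*Prdm16* (chr4:154316125-154636873, minus strand) held most of the peaks. In the control female list 15 of the 26 locus peaks were at *Prdm16*, and in the VEDS male list 44 of the 66. Among 408 genes with loci of similar length the medians were 2 and 4 peaks, and 99.3% and 99.8% of those genes had fewer peaks. Without *Prdm16*, 11 and 22 peaks remained at the other 9 loci. The study also lists *Prdm16* with smooth muscle transcripts, and the cell type in which the *Prdm16* peaks were accessible was not tested. All 15 control female peaks were overlapped by a VEDS male peak. Of these 15, 12 were over 3 kb from any TSS, and the same was true of 32 of the 44 VEDS male peaks.

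The intron peak 258 kb from the *Prdm16* start had the highest rank of all 92 locus peaks. It had 39 fragments (27.7 to 53.3) and rank 1031 in the control female list, and 93 (75.1 to 114) and rank 1240 in the VEDS male list, within the highest 4.87% and 2.99%. Its summits were 1 bp apart. The next in the control female list lay at 303 kb, with 25 fragments and rank 5654, and was also called in the VEDS male list with 64 fragments and rank 5762. It lay 1.2 kb from the start of a noncoding *Prdm16* transcript and within 3 kb of a start of *B230104I21Rik*, and both windows held C/EBP matches. Beside another internal noncoding start, at 108 kb, a peak had 17 fragments and rank 11854 in the control female list and 51 fragments and rank 8887 in the VEDS male list. The steroid receptor element printed above, GAACACTCTGTTC, was 51 bp from the control female summit and 6 bp from the VEDS male summit of the peak at 154 kb, which had 13 and 29 fragments. Steroid receptor matches were rare in the whole lists, in 1.24% of the windows of the control female list and 1.1% of those of the VEDS male list. Other *Prdm16* summit windows also held a C/EBP, EBF or steroid receptor match. The peak at 55.06 kb had 26 fragments in the VEDS male and 10 in the control female list. Its C/EBP matches were inside the VEDS male peak and outside the control female peak. In the VEDS male list alone, such windows lay at 234.7 kb (C/EBP, 19 fragments) and 246.3 kb (steroid receptor and CTCF, 24 fragments). Those at 172.4 and 78.55 kb, also in that list alone, held EBF matches (15 and 14 fragments). Both EBF matches were in the window but outside the peak. The protein-coding start of *Prdm16* had a peak in the VEDS male list alone, at 0.05 kb with 22 fragments and rank 34431. A second VEDS male peak at 0.58 kb, with 28 fragments and rank 25691, was nearest to the start of a noncoding transcript. The promoter call of *Prdm16* in the control female list therefore rests on starts of noncoding transcripts inside the gene. With protein-coding transcripts alone the control female count of genes with a promoter peak was 2 in place of 3, and the VEDS male count stayed at 6.

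**Figure D3:**
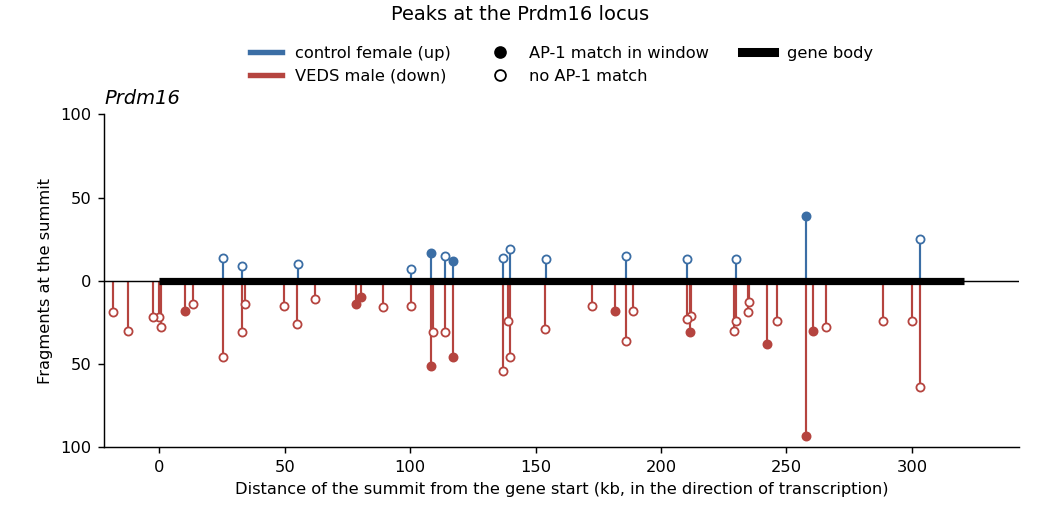
Fragments at the summit (vertical axis) of the peaks at *Prdm16* by distance from the gene start in kb, control female upward and VEDS male downward. Filled points are windows with an AP-1 match, and the highest point in both directions is the intron peak at 258 kb with 39 and 93 fragments. Fragments are not scaled for depth between libraries.

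At *Adipoq* (chr16:23146536-23158028, plus strand), which encodes the hormone adiponectin, the peak of highest rank was at the edge of the locus, at −18.79 and −18.77 kb, near a start of the neighboring *6330408M09Rik*, with 16 fragments and rank 6196 in the control female list and 44 fragments and rank 5135 in the VEDS male list. Neither list had a peak at the *Adipoq* start. A peak in the control female list lay 20.7 kb from the start, downstream of the gene, with 8 fragments (3.45 to 15.8) and rank 16751, and held a steroid receptor match and an AP-1 match. It was the 1 control female locus peak with no overlapping peak in the VEDS male list. In the VEDS male list a peak in an *Adipoq* intron at 5.07 kb had 11 fragments (5.49 to 19.7) and rank 32477, with none of the motifs searched. Each of these 2 peaks was in 1 list, and their counts were among the lower of their lists, whose medians were 14 and 22.

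*Lpl* (chr8:68880491-68907448, plus strand), whose product releases fatty acids from circulating lipoproteins, was the 1 gene with no peak in any list. The nearest peak to the gene was 68.5 kb away in the control female list and 86.4 kb away in the VEDS male list. Of 6806 genes with loci of similar length, 27.9% had none in the control female list and 18.6% had none in the VEDS male list.

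*Plin1* (chr7:79720218-79732903, minus strand) and *Cidec* (chr6:113424634-113435760, minus strand) encode proteins of the lipid droplet surface, and both lie among other genes. *Plin1* had no peak in the control female list and 3 in the VEDS male list. Of these 3, 1 was at the promoter of *Kif7* (24 fragments, rank 16540) and 1 at that of *Pex11a* (20 fragments, rank 18827), where the window held a pair of EBF matches. The remaining peak, with 13 fragments (6.92 to 22.2) and rank 31525, lay over an exon 11.4 kb inside *Plin1* and 1.7 kb from an internal start. This was the peak that counted as the *Plin1* promoter, and with a limit of 1 kb the VEDS male count of genes with a promoter peak was 5. *Cidec* had 2 peaks in the control female list and 3 in the VEDS male list. Both control female peaks were at the *Rpusd3* promoter (13 fragments at rank 9187 and 6 at rank 20770), which in the VEDS male list had 1 peak with 62 fragments and rank 2149. In the VEDS male list the *Jagn1* promoter, with a summit at −6.8 kb from the *Cidec* start, also had a peak, with 35 fragments and rank 7918. A distal peak at −16.2 kb had 10 fragments and rank 35259. The windows of both of these peaks held C/EBP matches. No peak overlapped the *Cidec* gene body.

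*Ucp1* (chr8:83290352-83298452, plus strand) had 1 peak in each long list, at the same upstream position. In the control female list the summit was at −11.79 kb, with 13 fragments (6.92 to 22.2) and rank 9412. In the VEDS male list it was at −11.72 kb, with 59 fragments (44.9 to 76.1) and rank 2034, within the highest 4.91% of the list and the highest rank of any VEDS male locus peak outside *Prdm16*. The enrichment over the local background was 7.91-fold and 18.6-fold. The C/EBP match TTGCAGAA printed above was inside the VEDS male peak, 128 bp from its summit, and outside the control female peak. The window of the control female summit held a TEAD match (GGAATG). The *Ucp1* start and body had no peak. The peak lay over 3 kb from any annotated TSS of any gene.

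**Figure D4:**
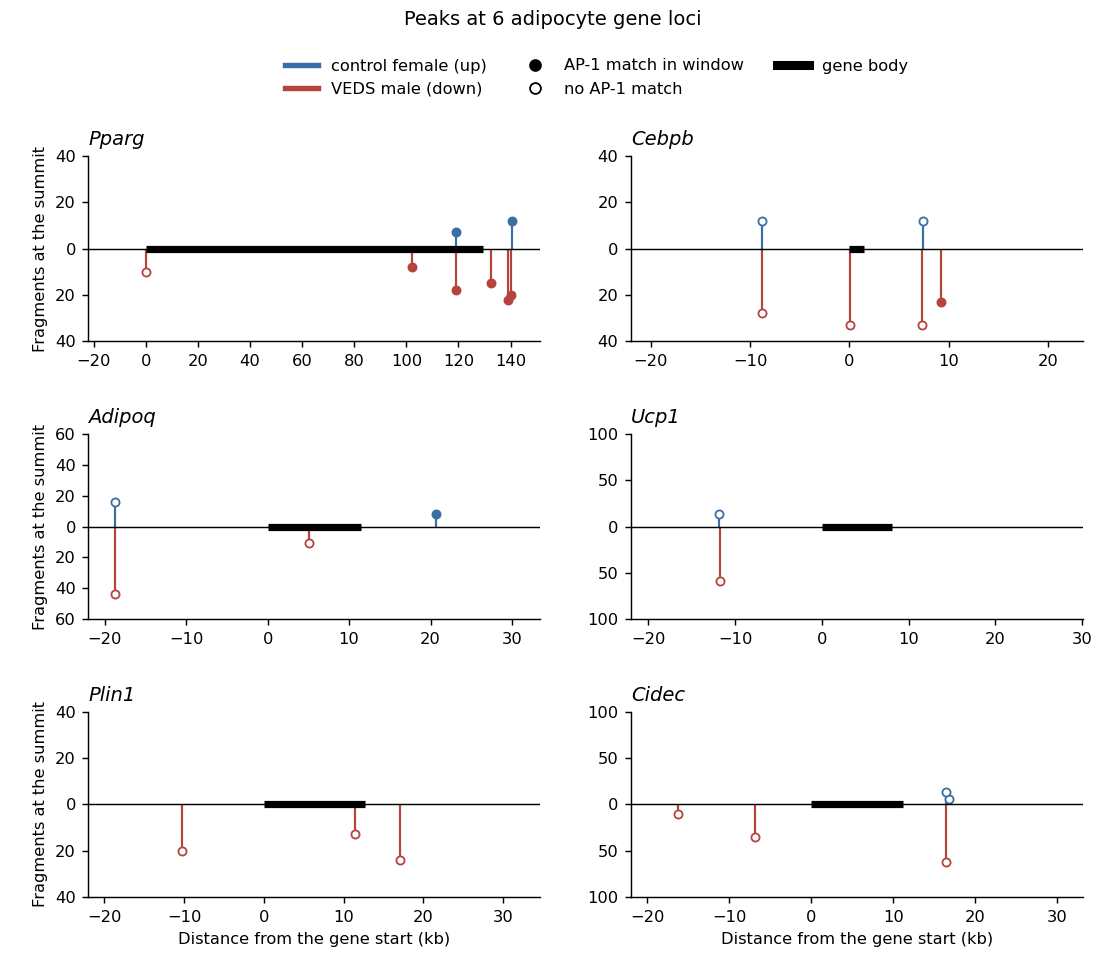
Fragments at the summit (vertical axis, scales differ between panels) by distance from the gene start in kb at 6 loci, control female upward and VEDS male downward, the thick line marking the gene body. *Pparg* peaks with AP-1 matches (filled) gather from 102 to 140 kb, and the bodies of *Ucp1* and *Cidec* hold no peak.

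Of the 26 control female locus peaks 25 were overlapped by at least 1 bp of a VEDS male peak (96.2%, 81.1% to 99.3%), beside 95.04% over the whole list. In the other direction 24 of 66 were (36.4%, 25.8% to 48.4%), beside 47.6% over the whole list. The share fell with rank. In 5 equal steps of rank from the highest to the lowest of the VEDS male list, 7 of 8, 8 of 11, 5 of 15, 3 of 16 and 1 of 16 locus peaks were shared, where the whole list had 97.6%, 75.1%, 39.6%, 18.1% and 7.52%. In the 25 shared pairs the summits were a median of 25 bp apart, and 15 pairs were within 50 bp. Ranks in the 2 lists had a Spearman correlation of 0.59 over the 25 pairs, 15 of which are at *Prdm16*, given as a description without a test. The median width of the locus peaks was 193 bp against 249 bp in the control female list and 259.5 bp against 287 bp in VEDS male. The median enrichment was 5.58-fold against 7.02-fold and 5.11-fold against 6.56-fold. Most of these peaks, 15 of 26 and 44 of 66, are at *Prdm16*, and medians without it were not computed. Peaks at the other loci lay on both sides of the list medians. Lower width and enrichment were therefore not read as a trait of fat gene loci. The locus peaks had medians of 13 and 24 fragments, against 14 and 22 in the lists. When an overlap of at least 50% of both peaks was asked for, 69.2% of the control female locus peaks were shared.

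Motifs were counted in the locus windows beside all windows of the same list. The PPARγ:RXR element DR1 was in 0 of 26 locus windows in the control female list and 0 of 66 in the VEDS male list (upper limits 12.9% and 5.5%), and in 0.336% and 0.36% of all windows. C/EBP matches were in 3 of 26 (11.5%) and 9 of 66 (13.6%, 7.34% to 23.9%), beside 11.04% and 11.9% of all windows. EBF matches were in 0 and 3 windows (4.55% in the VEDS male list, 1.56% to 12.5%, beside 1.48% of all), 2 at *Prdm16* and 1 at the *Pex11a* promoter. Within the peaks themselves 1.52% of the VEDS male locus peaks held an EBF match, and the same share over all peaks of the list was not computed. Steroid receptor matches were in 2 and 2 windows, beside 1.24% and 1.1% of all windows. NFI matches were in none, beside 0.0521% and 0.0556%, and CTCF matches in 1 and 2, beside 5.44% and 6.18%. AP-1 matches were in 6 of 26 (23.1%, 11.03% to 42.1%) and 16 of 66 (24.2%, 15.5% to 35.8%), beside 14.3% and 14.5% of all windows. Among peaks over 3 kb from any TSS, AP-1 matches were in 5 of the 18 locus windows of the control female list (27.8%) and 14 of the 43 of the VEDS male list (32.6%, 20.5% to 47.5%), beside 22.9% and 19.4% of distal windows in the lists. Of the 16 VEDS male windows with AP-1, 10 were at *Prdm16*, 5 at *Pparg* and 1 at *Cebpb*. MEF2 matches were in 0 and 2 windows, beside 5.37% and 5.67% of all windows, and TEAD matches in 5 and 12, beside 18.1% and 19.0%. Windows in both lists at the same site share sequence, most windows are at 1 gene, and the intervals, which treat windows as independent, are therefore too narrow. No enrichment was tested.

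The other genes of the fat program, 71 genes, were counted by role, without a test between roles. In both long lists most regulators had a promoter peak (47.4% and 58.5% of all genes), 14 of 16 in the control female list and 16 of 16 in the VEDS male list, among them *Cebpd*, *Rxra*, *Klf15* and *Ebf1*. *Rxrg* and *Ebf3* had one in the VEDS male list alone. Lipid synthesis genes had one in 6 and 8 of 10. The fatty acid synthase gene *Fasn* had one at rank 7976 (control female) and 8950 (VEDS male), and *Acacb*, for an acetyl-CoA carboxylase, at 1537 and 646. *Elovl6* and *Pck1* had none, and *Scd1* and *Gpd1* had one in the VEDS male list alone. Lipid droplet and lipolysis genes had one in 7 and 9 of 10, including the lipases *Lipe* and *Pnpla2*, with *Cidea* and *Mgll* in the VEDS male list alone and *Adrb3* in neither. In lipid uptake the counts were 5 and 5 of 7, with none at the fatty acid transporter *Cd36* or at *Gpihbp1*, which anchors lipoprotein lipase to the capillary wall. The fatty acid binding protein gene *Fabp4*, which endothelial cells also express, had a promoter peak in both (rank 13473 and 20884).

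Secreted, thermogenic and white or beige fat genes were counted in the same way. The intervals of these 3 lists included the shares of all genes in both long lists. Of 6 adipokine genes 1 had a promoter peak in the control female list and 3 in the VEDS male list (*Angptl4* in both, *Rbp4* and *Nnat* in the VEDS male list alone), and the leptin gene *Lep*, adipsin gene *Cfd* and resistin gene *Retn* had none. Of 14 thermogenic genes 5 and 7 had one. *Ppargc1b* and *Zic1* were in the VEDS male list alone, and *Dio2*, *Elovl3*, *Cox8b*, *Esrrg*, *Otop1*, *Ucp2* and *Ucp3* were in neither. Of 8 white and beige markers 2 and 2 had one (*Tnfrsf9* and *Slc2a4*), and *Tmem26*, *Tbx1*, *Car3*, *Hoxc9*, *Hoxc10* and *Agt* had none. In all, 40 of the 71 genes (56.3%, 44.8% to 67.3%) in the control female list and 50 (70.4%, 59% to 79.8%) in the VEDS male list had a promoter peak, beside the 47.4% and 58.5% of all genes given above. The 5 highest-ranked promoter peaks in the VEDS male list were those of *Acacb* (646), *Dgat1* (842), *Lmf1* (1190), *Esrra* (1223) and *Acsl1* (1687), which function in lipid or energy metabolism in many tissues. In the control male list 1 of the 71, *Slc27a1*, had a promoter peak (1.41%, beside 1.56% of all genes). In the VEDS female list 0 had one, beside 1.49%. Peaks elsewhere in their loci were called for *Gpd1*, *Plin4*, *Mgll* and *Bscl2* in the control male list and for *Ebf1*, *Acacb*, *Mgll* and *Cox8b* in the VEDS female list. With any peak there were 5 and 4 of the 71 genes, where 4.61% and 3.2% of all genes had one. Masked sequence made up a median of 99.5% of a control male peak.

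**Figure D5:**
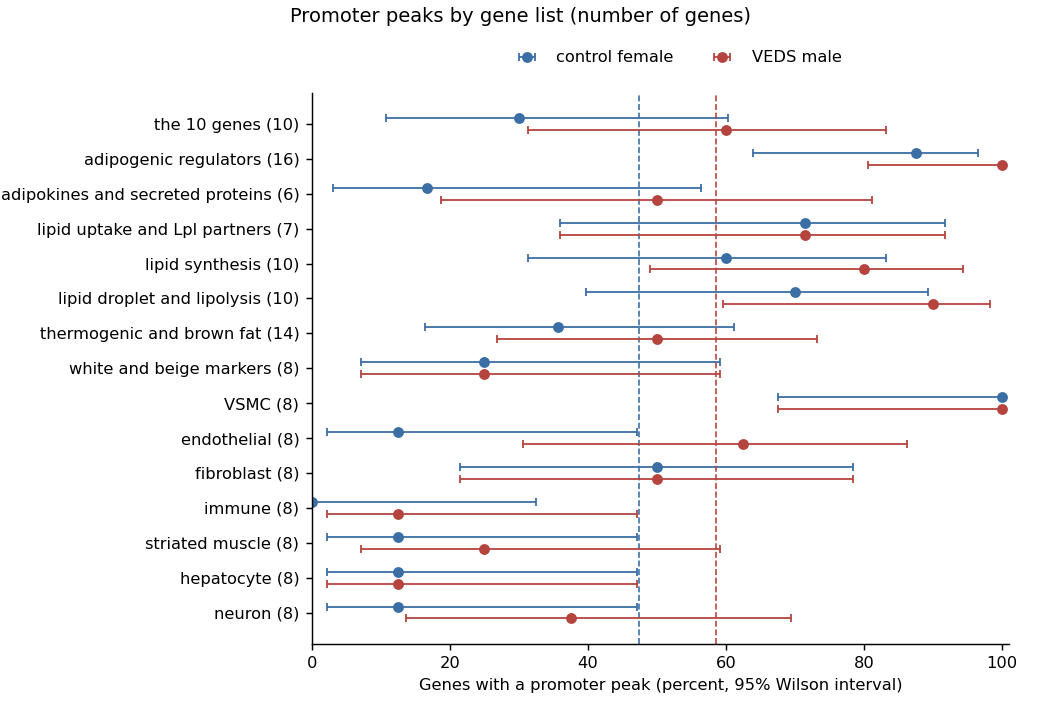
Percent of genes with a promoter peak (horizontal axis, points, with 95% Wilson intervals as bars) for the 10 genes, the lists of other fat genes and markers of other cell types, in the control female (blue) and VEDS male (red) lists. Dashed lines mark all protein-coding genes (47.4% and 58.5%), and regulators and VSMC markers lie at or above 87.5% in both lists.

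Markers of the other cell types that aortic tissue can hold were set beside these. All 8 markers of vascular smooth muscle cells (VSMCs), the main cell of the aortic wall, had a promoter peak in both long lists, with a median of 5 and 8.5 peaks per locus. The medians were 1.5 and 2.5 for the 10 genes, and none of these counts is scaled for the length of the loci. The other lists are read beside the 47.4% and 58.5% of all genes with a promoter peak. The counts for endothelial markers were 1 and 5 of 8 (12.5% and 62.5%), with none at *Cdh5*, *Egfl7* and *Emcn*. For fibroblasts they were 4 and 4 of 8 (50% in both), with none at *Lum*, *Dcn* and *Pi16*. Immune markers had 0 and 1 of 8, *Csf1r* in the VEDS male list, and the other 7 (*Ptprc*, *Cd68*, *Adgre1*, *Lyz2*, *Cd3e*, *Cd79a*, *Itgam*) had none. For cells foreign to the aortic wall the counts were 1 and 2 of 8 in striated muscle, 1 and 1 in hepatocytes, and 1 and 3 in neurons. Neither long list had a promoter peak at *Acta1*, *Tnnt2*, *Ttn*, *Myh6*, *Myod1* and *Mb* of the first, *Alb*, *Ttr*, *Serpina1a*, *Fgb*, *Cyp2e1*, *Tat* and *Hpx* of the second, and *Syt1*, *Rbfox3*, *Stmn2*, *Nefl* and *Tubb3* of the third. The 5 fat effector genes *Adipoq*, *Lpl*, *Plin1*, *Cidec* and *Ucp1* had 0 peaks over a protein-coding start in the 2 long lists, where 9.88% and 15.9% of all CpG-poor starts had one. The count therefore neither bears out nor goes against fat cells in these libraries, and the genes are described here by name. In libraries analyzed in aggregate, an absence of fat cell nuclei, a small share of them, a low accessibility per nucleus and too few fragments cannot be told apart.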

How the data were processed

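ATAC-seq peaks of 4 libraries of aortic nuclei were analyzed. The authors mapped reads to mm10 (GRCm38), counted reads that share both position and cell barcode as 1 fragment, moved read ends to the site where Tn5 cut, and ran MACS2 on these. The deposited lists, 1 per library, hold its narrow peaks after known problem regions of the genome were taken out. The aligner and peak threshold are not given in the sources used here. Each deposited list holds a score, the fold enrichment (a ratio to the library's own local background), −log10 p and −log10 q of each peak, all as the authors made them. These were used only within a list. The total number of fragments of a library was not used. Fragments at a summit were recovered as the whole number that gives the deposited fold enrichment (pseudocount 1) and −log10 p under a Poisson distribution, for between 99.3% and 99.9% of a list's peaks, and the scripts were tested on simulated data. Intervals are 95% Wilson or exact Poisson intervals and cover counting error only.

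Loci, starts and promoters were taken from GENCODE vM21 and sequences from GRCm38, the build of the peaks. Of 64205 peaks on the 21 main chromosomes, 0 ran past a chromosome end. Motifs were searched on both strands in 300-bp summit windows for 9 fixed consensus sequences: DR1, C/EBP (TTGCNNAA), EBF, NFI, the steroid receptor element, AP-1 (TGANTCA), MEF2, TEAD (GGAATG) and CTCF. A match is a description and not evidence of binding. The 10 genes, the other gene lists and the tests were chosen with earlier results of these data known. Named by rule were the 10 genes, other fat genes with a locus peak in a short list, with no promoter peak in either long list, with one in 1 long list or among the 5 highest-ranked in the VEDS male list, and marker genes of other cell types with no promoter peak. Others are given as examples of a list and were chosen after their values were seen. No test between genotypes or enrichment test was made. Alternatives were thresholds of −log10 q of 5 and 10, smaller loci and promoters, protein-coding starts, stricter overlap, equal list lengths, a limit of 50% on masked bases, other motif windows and consensus sequences, and leaving out each library. Python 3.11.15, numpy 2.4.6, pandas 2.3.3, scipy 1.17.1, pysam 0.24.0 and matplotlib 3.10.9 were used.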

Additional observations from a re-analysis of the deposited data

Results flagged for a closer look

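VEDS and control differed in opposite directions in the 2 sexes, with 1 library in each group, and this was not tested. At the 10 loci, the VEDS female list had 0 peaks and the control female list 26, a difference (VEDS minus control) of -26, while in males the lists had 66 and 0, a difference of 66. For genes with a promoter peak the difference was -3 in females (0 and 3) and 6 in males (6 and 0). For genes with any peak it was -8 in females (0 and 8) and 9 in males (9 and 0). The lengths of the lists moved in the same way, from 21176 peaks in the control female to 504 in the VEDS female list and from 1236 in the control male to 41444 in the VEDS male list. With every list at 504 peaks, all of these counts were 0 in the 4 lists. This follows from the ranks, since the highest locus peak ranked 1031 in its list, and so says nothing about the differences.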

How the results depend on the processing

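Counts at the loci depended on the length of the lists. At −log10 q of at least 5, the control female list held 16 locus peaks and 16 merged control peaks, and its share found in the VEDS male list was 100%. At −log10 q of at least 10, 4 locus peaks (4 merged) at 3 genes were left in the control female list, all of them shared (100%), and 30 (30 merged) in the VEDS male list, of which 13.3% were shared. With the VEDS male list at the length of the control female list, it held 27 locus peaks, and the shares found in the other list were 69.2% of control female and 63% of VEDS male locus peaks. With every list at the shortest length, locus peaks, genes with a promoter peak and genes with any peak were 0 in all lists. Within gene bodies alone, the control female list held 17 peaks at 3 genes, 100% of them shared. With overlap of at least 50% of both peaks, 69.2% of control female locus peaks were shared. Relaxed consensus sequences raised the windows with DR1, C/EBP or EBF from 11.5% to 46.2% (control female) and from 18.2% to 54.5% (VEDS male), and those with AP-1 from 23.1% to 50% and from 24.2% to 51.5%. The shares of all windows of the lists with a relaxed match were not computed, so the relaxed shares have no background and show no enrichment. Leaving out 1 library, merged control peaks were 0 to 26 and merged VEDS peaks 0 to 66, with 0 left without the control female or the VEDS male library. Among alternatives to counts and shares above 0 in the deposited lists, 45 others changed them by no more than 1.5 times or kept them within the interval, and counts of 0 in the short lists could not fall. The EBF share of VEDS male locus windows fell from 4.55% to 1.52% with the whole peak in place of the window. No paired analysis was possible because the results come from no test to which a block could be added, and the differences within each sex are given above.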
